A study of Homo sapiens with 8 samples.

Results

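The transcripts of HCT116, an established colon carcinoma cell line, were compared with those of SW620 and HT29, a pair of other colon tumour lines, over 18417 named genes, of which 16910 were tested. HCT116 contributed 2 arrays, 1 of cells sorted as ABCB5-positive and 1 of cells sorted as ABCB5-negative. The comparison arrays were 4, of which 2 came from SW620 and 2 from HT29, sorted in the same manner. ABCB5 is a membrane transporter of the ATP-binding cassette family, and the sort used an antibody against it. The sample labels call HCT116 a colon carcinoma, SW620 a lymph node metastasis of a colon carcinoma and HT29 a colon adenocarcinoma. All 6 cultures were kept in RPMI medium supplemented with serum, penicillin and streptomycin, and neither a drug nor another treatment is named. In the design text of the series SW480 stands in the place of SW620, a mismatch that was not settled, and the name on the samples is used here. The rest of the 8 arrays came from a further line, COLO741, and were left out of the comparison.

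Colon tumour lines keep different parts of the programme of the intestinal lining, in which absorptive cells carry a brush border of actin-filled microvilli and sit in a sheet sealed by tight junctions and desmosomes. HCT116 is known as a line with deficient DNA mismatch repair and a functional p53 response, and SW620 and HT29 as lines with proficient mismatch repair and an impaired p53 response. Mismatch repair removes copying errors after replication, and p53 switches on genes of cell cycle arrest, repair and cell death. These properties are background and were not measured here.

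Values are log2 expression values as deposited, so that a difference of 1 is a doubling in signal between groups. Each probe set has its own brightness, and no gene's level is set against another's. The level of a dim gene was taken from 357 probe sets for receptors of smell, which colon cells are not known to rely on, and their 95th percentile, the olfactory level, was 7.51. Where some arrays of a group lay under this level, no fold is given, and their number or the value of each array is stated. Where every array of the dimmer group did, the fold is given as a lower bound, with the dim arrays set to this level or to their own value where that was higher. Groups were compared per gene with limma, with the sorted population as covariate and Benjamini-Hochberg adjustment over the 16910 genes, and a gene with an adjusted p below 0.05 is called. Differences are HCT116 minus the mean of SW620 and HT29 and carry the standard error (SE) of that fit. A lower signal can come from fewer cells with a transcript or from less RNA per cell, which such bulk samples cannot tell apart.

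Markers of simple and intestinal epithelium lay above the olfactory level on both arrays for 7 of 9 in HCT116, 8 of 9 in SW620 and 9 of 9 in HT29. The exceptions in HCT116 were VIL1 and KRT20. Passing this level does not by itself set the cell type. Of 6 melanocyte markers, 3 also passed it in HCT116, 1 in SW620 and 1 in HT29. EPCAM, KRT8, KRT18 and KRT19 were at 13.32 or more on all 6 arrays. One array stood apart. The ABCB5-positive SW620 array had a mean of 8.39 over 7 leukocyte markers, against 7.06 to 7.16 on the other 5 arrays, and CYBB, a subunit of the phagocyte oxidase, was at 9.28 there against 6.06 on the ABCB5-negative SW620 array. The markers CD3D and CD79A, which define T and B cells, were not raised to a like extent on it, at 6.71 against 6.57 and at 7.76 against 7.43. Without this array 374 genes were called, of which 365 were among those called with it, and 22 of the 24 largest differences described below stayed called. The part of these transcripts in the results was not tested beyond that.

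A total of 536 genes were called higher in HCT116, which is 3.17% of those tested, and 420 were called lower, which is 2.48%. Together these are 956 genes or 5.65%, and 608 of them, 3.6% of those tested, differed by at least 2-fold. At least 8-fold differences were found for 55 genes higher and 59 genes lower. No called gene had an HCT116 array within the range of the 4 others. Such separation was itself frequent, since both HCT116 arrays lay above all 4 others for 24.3% of genes tested and below them for 17.9%, and these shares are the background for the gene groups described here. Both arrays of a line were close, with a median absolute difference of 0.07 between the HCT116 arrays, 0.12 between the SW620 arrays and 0.10 between the HT29 arrays, against 0.26 between HCT116 and SW620, 0.24 between HCT116 and HT29 and 0.26 between SW620 and HT29. By this measure HCT116 was no farther from either line than these were from each other.

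The p-values measure the spread between 6 arrays and not that between colon tumour lines, since HCT116 is 1 line and the comparison holds 2. With the line as a random block, 150 genes were called, and with both arrays of a line averaged no gene was, although 873 had an unadjusted limma p below 0.05. Likewise 0 genes were called when either HCT116 array was left out, with 1434 genes at an unadjusted limma p below 0.05 without the ABCB5-negative and 1413 without the ABCB5-positive array. Leaving out the ABCB5-negative SW620 array gave 311 calls, and leaving out the ABCB5-negative or the ABCB5-positive HT29 array gave 299 and 324.

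**Figure D1:**
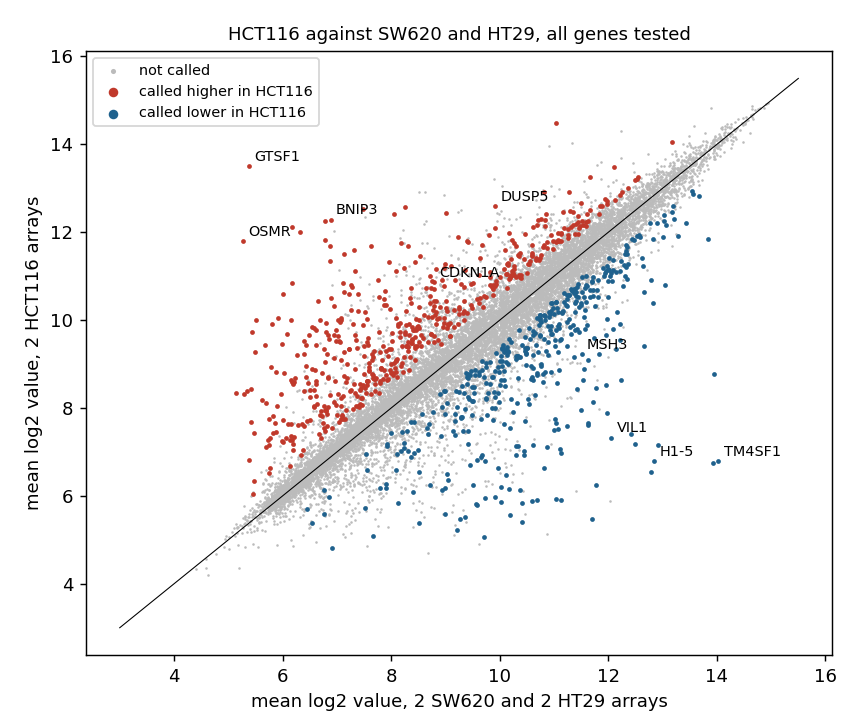
Mean log2 value of each gene tested over the 2 HCT116 arrays (vertical axis) against the mean over the 2 SW620 and 2 HT29 arrays (horizontal axis), with equality as a line; red points are the 536 genes called higher and blue points the 420 called lower in HCT116. GTSF1 lies farthest above the line, and TM4SF1, VIL1 and H1-5 lie far below it.

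A set of replication-dependent histone genes and the mitophagy gene BNIP3 were among the largest differences, and their promoters are shown because these genes are known for a common promoter element. Histone gene promoters often carry the CCAAT box, the site of the factor NF-Y, and BNIP3 is known as a target of the hypoxia factor HIF-1, whose site has the core ACGTG. The sequences are from RefSeq on GRCh38.p14 and run from 250 bases before to 50 bases after the annotated start. They are read on the gene's own strand, with CCAAT in capitals in the histone promoters and ACGTG in capitals in that of BNIP3, each searched on both strands, so that CCAAT can stand in its reverse form.
H1-5, chr6:27867539-27867838, minus strand: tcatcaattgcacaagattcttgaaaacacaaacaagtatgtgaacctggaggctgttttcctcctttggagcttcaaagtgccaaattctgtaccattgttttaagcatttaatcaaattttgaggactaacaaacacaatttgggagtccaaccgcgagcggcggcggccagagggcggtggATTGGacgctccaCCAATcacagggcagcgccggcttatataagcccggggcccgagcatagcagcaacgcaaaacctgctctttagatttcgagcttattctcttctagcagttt
H1-3, chr6:26234938-26235237, minus strand: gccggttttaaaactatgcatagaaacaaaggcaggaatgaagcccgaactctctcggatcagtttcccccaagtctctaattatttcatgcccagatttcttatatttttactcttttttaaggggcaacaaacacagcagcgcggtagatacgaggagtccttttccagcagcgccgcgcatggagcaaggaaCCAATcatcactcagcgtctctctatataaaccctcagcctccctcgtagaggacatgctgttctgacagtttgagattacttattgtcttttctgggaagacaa
H2BC10, chr6:26272681-26272980, plus strand: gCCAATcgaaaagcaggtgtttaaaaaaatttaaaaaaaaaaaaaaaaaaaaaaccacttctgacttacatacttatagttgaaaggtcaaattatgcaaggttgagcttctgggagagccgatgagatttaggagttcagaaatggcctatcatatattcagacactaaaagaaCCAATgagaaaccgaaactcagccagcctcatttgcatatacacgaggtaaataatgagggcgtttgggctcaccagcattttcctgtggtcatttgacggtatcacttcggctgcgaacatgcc
BNIP3, chr10:131981874-131982173, minus strand: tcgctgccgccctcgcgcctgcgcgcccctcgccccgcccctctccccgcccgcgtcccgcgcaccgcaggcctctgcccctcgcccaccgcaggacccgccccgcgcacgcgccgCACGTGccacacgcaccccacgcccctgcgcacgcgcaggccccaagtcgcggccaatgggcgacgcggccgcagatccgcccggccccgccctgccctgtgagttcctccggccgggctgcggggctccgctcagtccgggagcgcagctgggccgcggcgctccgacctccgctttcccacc
H1-5 had 2 matches to CCAAT, H2BC10 had 2 and H1-3 had 1, and the 2 matches to ACGTG in BNIP3 are 1 palindrome read on both strands. Of 27305 promoters in the table, 35.7% held CCAAT and 21.6% held ACGTG. The CCAAT box was in 43 of 51 histone promoters, 84.3%, and in 15 of the 16 found for histone genes called lower. A match describes the letters in this window and says nothing of whether the factor bound there.

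GTSF1, a zinc finger protein known as a partner of PIWI proteins in the germ line, had the largest difference of any called gene. Its value was 13.53 and 13.47 in the ABCB5-negative and ABCB5-positive HCT116 arrays, against 5.51 and 5.22 in the SW620 and 5.45 and 5.38 in the HT29 arrays, given throughout with the ABCB5-negative array of a line first. It was above the olfactory level in HCT116 and under it in both other lines, at least 63.7-fold higher in HCT116 (limma adjusted p = 0.000448). OSMR, the receptor subunit that binds oncostatin M, was at 11.77 and 11.82 in HCT116, against 5.22 and 5.56 in SW620 and 5.28 and 5.05 in HT29, at least 19.5-fold higher (adjusted p = 0.00137). LIFR, the receptor subunit for leukaemia inhibitory factor that also pairs in oncostatin M signalling, was chosen after its values were seen and was at 9.81 and 9.67 in HCT116, against 5.87 and 5.21 in SW620 and 5.21 and 5.44 in HT29, at least 4.68-fold higher (adjusted p = 0.00331). Both receptor subunits were thus measured above the olfactory level in HCT116 and under it in SW620 and HT29.

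A pair of matrix genes followed. VCAN encodes versican, a large proteoglycan of the extracellular matrix, and was at 12.14 and 12.10 in HCT116, against 5.86 and 7.16 in SW620 and 5.57 and 6.10 in HT29, at least 24.5-fold higher (adjusted p = 0.00599). Its higher SW620 value came from the array with raised leukocyte markers and was still under the olfactory level. COL12A1, a collagen that associates with fibrils, was at 11.99 and 12.03 in HCT116, against 6.49 and 6.07 in SW620 and 6.21 and 6.50 in HT29, at least 22.6-fold higher (adjusted p = 0.00137). CPA4, a secreted carboxypeptidase, was at 12.19 and 12.31 in HCT116, against 6.75 and 7.05 in SW620 and 6.61 and 6.71 in HT29, at least 26.7-fold higher (adjusted p = 0.00137). None of these genes was near its HCT116 level on any array of the other lines.

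BNIP3, a protein of the outer mitochondrial membrane that marks mitochondria for removal, was at 12.28 and 12.30 in HCT116, against 6.999 and 7.25 in SW620 and 6.64 and 6.66 in HT29, at least 27.4-fold higher (adjusted p = 0.00211). CYP24A1, the hydroxylase that breaks down active vitamin D, was at 12.50 and 12.56 in HCT116, against 7.73 and 7.56 in SW620 and 7.27 and 7.40 in HT29 (log2 difference 5.04 ± 0.16 SE, adjusted p = 0.00146), with 2 of the 4 comparison arrays above the olfactory level. RAB3B, a small GTPase of regulated secretion, was at 11.71 and 11.94 in HCT116, against 6.62 and 6.38 in SW620 and 7.02 and 7.12 in HT29, at least 19.9-fold higher (adjusted p = 0.00348). For all 3 genes the SW620 and HT29 values lay within about a unit of each other.

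PHLDB2, which helps to anchor microtubules at the cell cortex, was at 11.69 and 11.69 in HCT116, against 6.26 and 6.21 in SW620 and 7.16 and 7.86 in HT29 (log2 difference 4.82 ± 0.55 SE, adjusted p = 0.0211), with 1 of the 4 comparison arrays above the olfactory level. LPAR3, a receptor for lysophosphatidic acid, was at 10.87 and 10.84 in HCT116, against 6.41 and 6.04 in SW620 and 6.10 and 6.16 in HT29, at least 10.2-fold higher (adjusted p = 0.00137). The remaining genes of the 12 largest were PRKAR2B, a regulatory subunit of protein kinase A, at least 8.51-fold higher (adjusted p = 0.00184), and DSC3, a desmosomal cadherin of stratified epithelia, at least 5.66-fold higher (adjusted p = 0.00137). DSC3 was at 10.18 and 9.84 in HCT116, against 5.74 and 5.43 in SW620 and 5.49 and 5.41 in HT29. In the random-block fit 21 of the 24 largest differences in both directions stayed called.

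**Figure D2:**
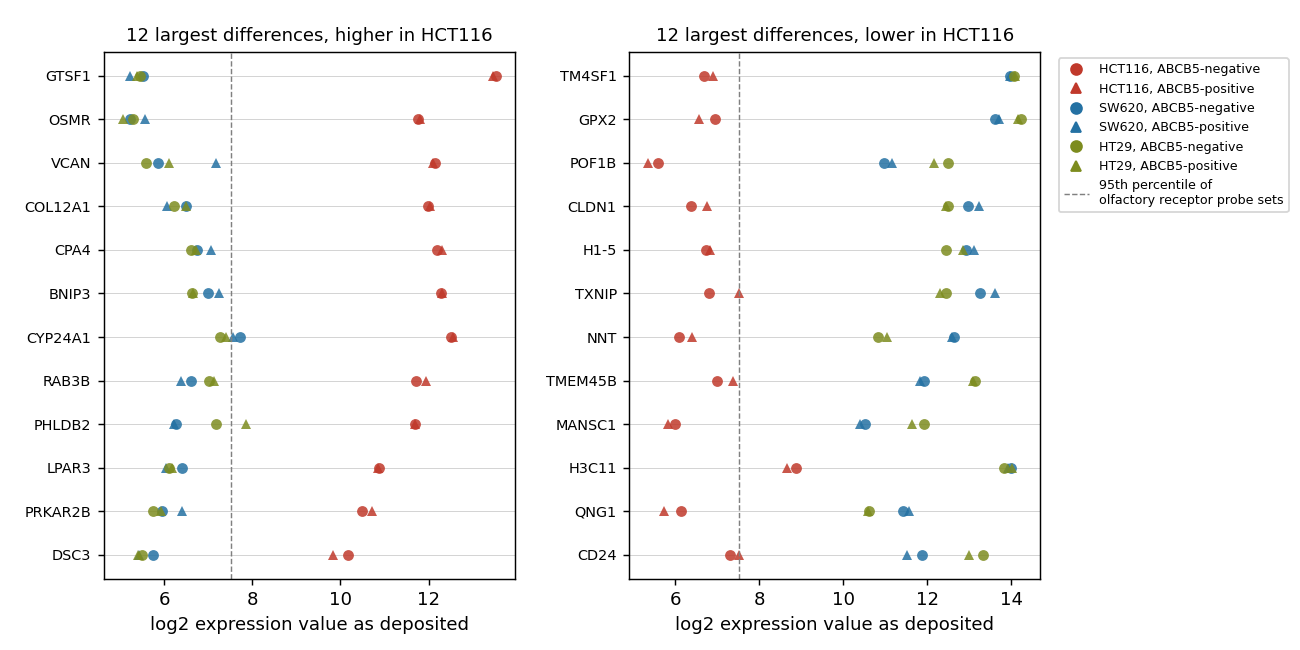
Log2 value on each of the 6 arrays for the 12 largest called differences higher in HCT116 (left) and the 12 lower (right); colour marks the line, circles the ABCB5-negative and triangles the ABCB5-positive array, and the dashed line is the olfactory 95th percentile of 7.51. The red HCT116 points lie apart from the blue and green points in every row, and both points of a line lie close together, with VCAN in SW620 among the wider pairs.

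The largest deficit in HCT116 was that of TM4SF1, a membrane protein with 4 transmembrane segments. It was at 6.68 and 6.90 in HCT116, against 13.96 and 13.98 in SW620 and 14.08 and 14.09 in HT29, at least 91.7-fold lower (adjusted p = 0.000469). GPX2, the glutathione peroxidase of the gut lining, was at 6.95 and 6.57 in HCT116, against 13.63 and 13.71 in SW620 and 14.24 and 14.16 in HT29, at least 86.0-fold lower (adjusted p = 0.00153). Both genes were under the olfactory level in HCT116 and above it on every array of SW620 and HT29.

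CLDN1, a claudin of tight junctions, was at 6.36 and 6.74 in HCT116, against 12.98 and 13.23 in SW620 and 12.48 and 12.44 in HT29, at least 38.7-fold lower (adjusted p = 0.00268). POF1B, an actin-binding protein of epithelial junctions, was at 5.58 and 5.35 in HCT116, against 10.97 and 11.17 in SW620 and 12.50 and 12.15 in HT29, at least 18.3-fold lower (adjusted p = 0.0103). CD24, a glycoprotein anchored in the outer membrane, was at 7.30 and 7.52 in HCT116, against 11.88 and 11.51 in SW620 and 13.32 and 12.99 in HT29 (log2 difference -5.02 ± 0.61 SE, adjusted p = 0.0236), with 1 of 2 HCT116 arrays above the olfactory level. For POF1B and CD24 the HT29 arrays were also above the SW620 arrays. The membrane proteins TMEM45B and MANSC1, whose functions are less well known, were at least 31.7-fold and at least 12.3-fold lower in HCT116 (adjusted p = 0.015 and 0.0165).

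TXNIP, which binds thioredoxin and restrains glucose uptake, was at 6.80 and 7.53 in HCT116, against 13.25 and 13.62 in SW620 and 12.44 and 12.31 in HT29 (log2 difference -5.74 ± 0.47 SE, adjusted p = 0.00949), with 1 of 2 HCT116 arrays above the olfactory level. NNT, the mitochondrial transhydrogenase that makes NADPH, was at 6.08 and 6.40 in HCT116, against 12.63 and 12.58 in SW620 and 10.82 and 11.05 in HT29, at least 19.2-fold lower (adjusted p = 0.0249). QNG1, an enzyme of queuosine salvage, was at least 11.6-fold lower (adjusted p = 0.00793). The SW620 and HT29 arrays differed in NNT by more than a unit, and both stood well above HCT116.

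Replication-dependent histone genes supply the histones of newly copied DNA and lie in clusters, the largest on chromosome 6. This group was taken up because H1-5 and H3C11 were among the largest differences, so it was chosen after values were seen and its counts are a description. Of 56 histone genes tested, 17 were called lower in HCT116, which is 30.4% against 2.48% of all genes, and 1, H1-1, was called higher. Both HCT116 arrays lay below all 4 others for 22 of them, or 39.3%, and the group's median difference was -0.08. Members without a call also differed, as H4C8 did by -1.50 (adjusted p = 0.053) and H2AC15 by 0.55 (adjusted p = 0.418). Probe sets of near-identical histone copies may not separate the copies, so the member to which a value belongs is uncertain.

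The linker histone gene H1-5 was at 6.74 and 6.83 in HCT116, against 12.92 and 13.13 in SW620 and 12.44 and 12.86 in HT29, at least 40.2-fold lower (adjusted p = 0.00137). H3C11, which encodes histone H3, was at 8.88 and 8.66 in HCT116, against 13.99 and 13.92 in SW620 and 13.84 and 14.02 in HT29, a 36.1-fold lower level (log2 difference -5.17 ± 0.12 SE, adjusted p = 0.00137). H2AC8, a gene of histone H2A, was at 4.62 and 5.50 in HCT116, against 9.79 and 9.95 in SW620 and 9.36 and 9.73 in HT29, at least 4.59-fold lower (adjusted p = 0.00268). The linker histone gene H1-3 had a log2 difference of -3.64 ± 0.28 (SE, adjusted p = 0.00809) and H2BC10 was at least 3.25-fold lower (adjusted p = 0.00599). Other linker histone genes of the cluster did not show it, as H1-2 was at 12.18 and 12.18 in HCT116, against 12.19 and 12.27 in SW620 and 11.90 and 12.19 in HT29.

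Of the 17 called lower, 11 lay in 3 runs of neighbours. Among genes tested, H2BC8, H2AC8 and H1-3 followed each other, as did H3C7, H2BC9, H3C8 and H2BC10, and as did H2AC16, H1-5, H3C11 and H4C13, with every member of these 3 runs called lower. On chromosome 6, 48 histone genes were tested and 15 were called lower. The 7 on chromosome 1 held 1 called lower, H2BC21, and H4C16 on chromosome 12 was also called lower (a log2 difference of -0.73 ± 0.12 SE for H2BC21, and at least 1.66-fold lower for H4C16). SLBP, the protein that binds the stem-loop ending of histone messages, had a log2 difference of 0.27 (adjusted p = 0.182). Of 131 small nucleolar RNA genes, 5 (3.82%) were called lower and 2 (1.53%) higher, against 2.48% and 3.17% of all genes. Their median difference was 0.06.

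**Figure D3:**
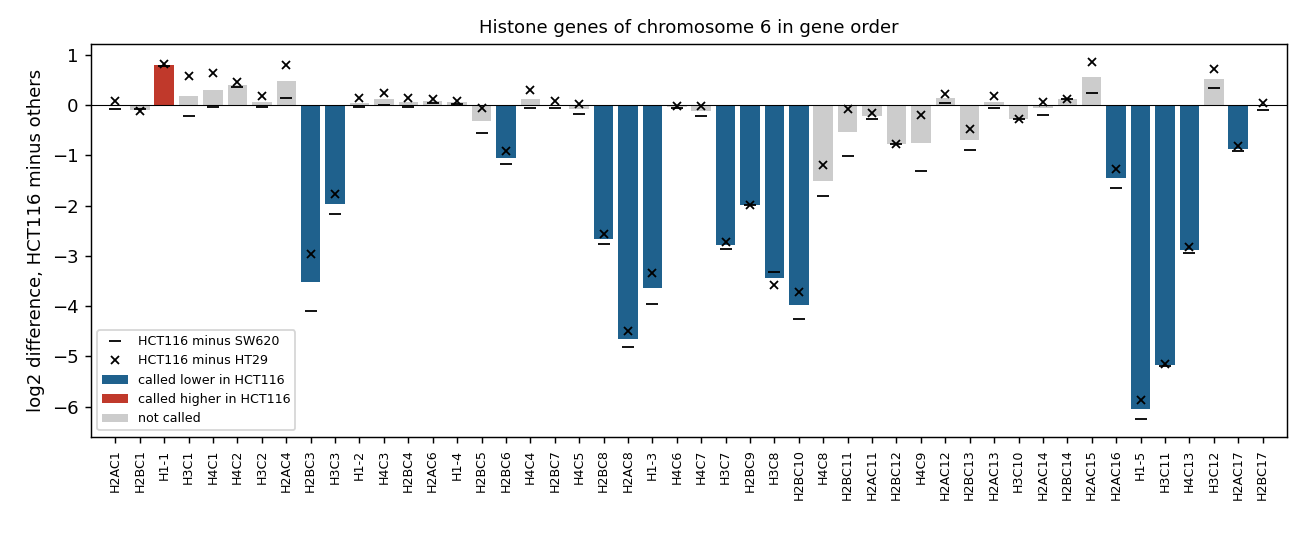
Log2 difference, HCT116 minus the mean of SW620 and HT29, for the 48 histone genes of chromosome 6 tested, in gene order; bars in blue are the 15 called lower, the red bar is H1-1 and grey bars were not called, with dashes for HCT116 minus SW620 and crosses for HCT116 minus HT29. The low bars stand in separate runs, with bars near 0 between them, and the dash and cross of a called gene lie close together.

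The identity genes of simple epithelium were not called in either direction, 0 of 24 by limma, and 7 of them (29.2%) lay below all 4 comparison arrays, against 17.9% of all genes. The median of the list was 0.31 against SW620 and -0.87 against HT29, so the absence of calls does not show likeness to both lines. EPCAM, an adhesion protein of epithelial cells, was at 13.32 and 13.35 in HCT116, against 13.43 and 13.50 in SW620 and 13.77 and 13.70 in HT29 (log2 difference -0.27 ± 0.14 SE, adjusted p = 0.381). The keratins KRT8, KRT18 and KRT19, which form the filaments of simple epithelia, had log2 differences of -0.37, -0.43 and -0.09 with adjusted p of 0.219, 0.167 and 0.668. CDH1, the E-cadherin of adherens junctions, was at 11.26 and 11.19 in HCT116, against 9.98 and 11.46 in SW620 and 13.25 and 13.19 in HT29. HCT116 thus lay within the range of the SW620 arrays and below HT29. The higher SW620 value came from the array with raised leukocyte markers.

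Called intestinal genes were VIL1 and EPS8L3 among those lower in HCT116, and the regulator CDX2 higher. VIL1, the actin-bundling villin of microvilli, was at 7.14 and 7.52 in HCT116, against 12.29 and 12.55 in SW620 and 11.72 and 11.65 in HT29 (log2 difference -4.72 ± 0.32 SE, adjusted p = 0.00634), with 1 of 2 HCT116 arrays above the olfactory level. EPS8L3, a relative of the actin regulator EPS8, was at 7.55 and 7.97 in HCT116, against 11.12 and 11.44 in SW620 and 10.99 and 10.55 in HT29, a 9.64-fold lower level (log2 difference -3.27 ± 0.30 SE, adjusted p = 0.012). USH1C, the scaffold harmonin that links the tips of microvilli, was chosen after its values were seen and was at 8.68 and 8.46 in HCT116, against 11.04 and 11.24 in SW620 and 11.04 and 10.86 in HT29 (log2 difference -2.48 ± 0.15 SE, adjusted p = 0.00459). In each of these 3 genes SW620 and HT29 lay close together. Other brush border genes of the list, named after their values were seen, did not follow, as CDHR5, a cadherin of microvilli, was at 8.02 and 8.07 in HCT116, against 8.03 and 7.81 in SW620 and 9.57 and 9.27 in HT29, and ALPI, the intestinal alkaline phosphatase, differed by 0.06 (adjusted p = 0.751).

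CDX2, the homeobox factor that sets intestinal identity, was at 10.03 and 9.80 in HCT116, against 9.01 and 9.02 in SW620 and 9.03 and 9.15 in HT29 (log2 difference 0.86 ± 0.11 SE, adjusted p = 0.0289). Its relative CDX1 differed by 0.12 ± 0.11 (SE, adjusted p = 0.605). These were the calls among 31 intestinal and enterocyte genes tested, 1 higher (3.23%) and 3 lower (9.68%), against 3.17% and 2.48% of all genes. Of the 31, 10 lay below all 4 other arrays (32.3%) and 2 above (6.45%), against 17.9% and 24.3% of all genes. KRT20, the keratin of differentiated colon cells, was at 7.18 and 7.13 in HCT116, against 6.71 and 6.67 in SW620 and 12.87 and 13.01 in HT29. High KRT20 was thus a property of the HT29 arrays, and the pooled difference had an adjusted p of 0.631.

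Of 26 goblet and secretory genes, 0 were called by limma, and 7 (26.9%) lay below all 4 other arrays, against 17.9% of all genes. The group's median difference was 0.11 against SW620 and -0.89 against HT29. MUC13, a membrane mucin, was at 5.66 and 5.51 in HCT116, against 8.97 and 9.35 in SW620 and 12.01 and 11.51 in HT29 (adjusted p = 0.0852), and TFF3, the trefoil peptide of goblet cells, was at 8.33 and 8.03 in HCT116, against 10.43 and 10.26 in SW620 and 9.33 and 10.30 in HT29 (adjusted p = 0.0644). HCT116 was the lowest line in both, without a call. Among 16 keratins tested, KRT80 was the 1 called (6.25%, against 2.48% of all genes called lower). It was at 8.83 and 8.79 in HCT116, against 10.91 and 11.12 in SW620 and 10.72 and 11.04 in HT29 (log2 difference -2.14 ± 0.12 SE, adjusted p = 0.00455). MUC13 and TFF3 were chosen after their values were seen.

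Epithelial-mesenchymal transition is the programme by which epithelial cells become motile. Of 41 mesenchymal genes and genes of this programme, 17 (41.5%) lay above all 4 other arrays, against 24.3% of all genes. The calls were 1 higher and 1 lower (2.44% each), near the 3.17% and 2.48% of all genes. FSTL1, a secreted glycoprotein of mesenchymal cells, was at 9.84 and 9.87 in HCT116, against 6.59 and 6.82 in SW620 and 6.25 and 6.47 in HT29, at least 5.08-fold higher (adjusted p = 0.00327). TGFBI, a matrix protein induced by TGF-beta, was at 7.20 and 6.95 in HCT116, against 11.91 and 11.75 in SW620 and 9.84 and 10.97 in HT29, at least 12.2-fold lower (adjusted p = 0.0464). The HT29 arrays differed by more than a unit in TGFBI.

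Several mesenchymal genes were highest in HCT116 with SW620 and HT29 far apart, and these were chosen after their values were seen. ITGA5, the fibronectin receptor subunit, was at 11.29 and 11.28 in HCT116, against 9.17 and 9.24 in SW620 and 7.11 and 7.08 in HT29 (log2 difference 3.14 ± 0.86 SE, adjusted p = 0.132), with both HT29 arrays under the olfactory level. PLAU, the urokinase plasminogen activator, was at 11.20 and 11.40 in HCT116, against 9.14 and 9.66 in SW620 and 7.82 and 8.38 in HT29 (adjusted p = 0.0782). The order was HCT116, SW620 and HT29 in both genes, and the gap between SW620 and HT29 entered the error. VIM, the filament protein vimentin, was at 8.37 and 8.27 in HCT116, against 13.60 and 13.43 in SW620 and 7.08 and 7.43 in HT29, and ZEB1, a repressor of E-cadherin, was at 8.95 and 9.05 in HCT116, against 10.65 and 10.07 in SW620 and 6.91 and 7.22 in HT29. HCT116 stood between the lines in both, with adjusted p of 0.71 and 0.931. Of 23 integrin subunits, 1 was called lower (4.35%, against 2.48% of all genes). This was ITGB7, which pairs with alpha subunits of lymphocyte homing, at 7.76 and 7.67 in HCT116, against 8.92 and 9.40 in SW620 and 9.20 and 9.18 in HT29 (log2 difference -1.46 ± 0.15 SE, adjusted p = 0.0165).

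Targets of p53 leaned towards HCT116. Of 44 tested, 20 (45.5%) lay above all 4 other arrays, against 24.3% of all genes, and 4 (9.09%) below, and the median difference was 0.30, against 0.04 over all genes. The calls were 4 higher (9.09%) and 2 lower (4.55%), against 3.17% and 2.48% of all genes. CDKN1A, the inhibitor p21 that halts the cell cycle, was at 10.93 and 10.80 in HCT116, against 8.57 and 8.34 in SW620 and 9.09 and 9.16 in HT29, a 4.21-fold higher level (log2 difference 2.07 ± 0.29 SE, adjusted p = 0.0329). TP53INP1, a p53-induced nuclear protein, was at 8.67 and 8.52 in HCT116, against 7.19 and 7.24 in SW620 and 6.995 and 7.26 in HT29, at least 2.13-fold higher (adjusted p = 0.0104).

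MDM2, the ubiquitin ligase that is both a target and an inhibitor of p53, was at 12.67 and 12.77 in HCT116, against 12.17 and 12.04 in SW620 and 12.16 and 12.08 in HT29 (log2 difference 0.61 ± 0.10 SE, adjusted p = 0.0432). POLH, a polymerase that copies past DNA lesions, was chosen after its values were seen and had a log2 difference of 0.71 ± 0.09 (SE, adjusted p = 0.0252). The 2 called lower were PERP, a desmosomal protein, with a log2 difference of -0.77 ± 0.13 (SE, adjusted p = 0.0465), and TP53TG1, a non-coding transcript under the olfactory level on all 6 arrays, so that no size or direction is read from its call (adjusted p = 0.0382). None of these targets kept its call in the fit with the line as a random block. A pair of cell death genes of the list, chosen after their values were seen, had no call: PMAIP1, the killer protein NOXA, was at 12.003 and 12.10 in HCT116, against 10.42 and 10.08 in SW620 and 9.33 and 9.13 in HT29 (adjusted p = 0.0616), and the death receptor FAS was at 9.71 and 9.83 in HCT116, against 7.44 and 7.57 in SW620 and 8.15 and 8.48 in HT29 (adjusted p = 0.06). Other cell death genes of the list had smaller differences, with -0.38 for BAX and 0.31 for BBC3.

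Of 37 genes of the BCL2 family and death receptors, which set the threshold of apoptosis, 8 lay above and 8 below all 4 other arrays (21.6% each). These shares are near the 24.3% and 17.9% of all genes. XIAP, an inhibitor of caspases, was the 1 called (2.7%, near the 2.48% of all genes called lower). It was at 9.21 and 9.14 in HCT116, against 10.03 and 10.10 in SW620 and 10.00 and 9.98 in HT29 (log2 difference -0.85 ± 0.09 SE, adjusted p = 0.0187). TNFSF10, the death ligand TRAIL, was at 6.09 and 6.14 in HCT116, against 11.53 and 11.22 in SW620 and 9.65 and 9.28 in HT29, at least 7.52-fold lower with no call (adjusted p = 0.0586). Its receptor TNFRSF10B had the opposite sign, with a log2 difference of 0.99 ± 0.17 (SE, adjusted p = 0.0526). The ligand and receptor were chosen after their values were seen.

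Of 21 cell cycle genes around CDK inhibitors, D cyclins and the RB family, 8 (38.1%) lay above all 4 others, against 24.3% of all genes. Of the 21, 2 (9.52%) were called higher and 1 (4.76%) lower, against 3.17% and 2.48% of all genes. Besides CDKN1A the call higher was E2F2, a factor that drives S phase genes, at 9.11 and 9.10 in HCT116, against 8.14 and 8.18 in SW620 and 7.90 and 8.11 in HT29 (log2 difference 1.0206 ± 0.11 SE, adjusted p = 0.0203). RBL2, the pocket protein p130 of resting cells, was at 9.38 and 9.37 in HCT116, against 10.49 and 10.53 in SW620 and 10.50 and 10.48 in HT29 (log2 difference -1.12 ± 0.08 SE, adjusted p = 0.00767). CDKN2A, which encodes p16 and ARF, differed by -0.47 ± 0.23 (SE, adjusted p = 0.335).

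Of 34 DNA replication and S phase genes 13 (38.2%) lay above all 4 others, against 24.3% of all genes. By limma 1 was called higher (2.94%, near the 3.17% of all genes). This was CDT1, the loader of the replicative helicase, at 11.08 and 11.07 in HCT116, against 10.17 and 10.22 in SW620 and 10.27 and 10.32 in HT29 (log2 difference 0.83 ± 0.09 SE, adjusted p = 0.0203). Of 30 G2/M genes 0 were called by limma, and their median difference was 0.06. MKI67, a marker of cycling cells, was at 12.48 and 12.60 in HCT116, against 12.44 and 12.49 in SW620 and 12.44 and 12.70 in HT29, with overlapping arrays. It was chosen after its values were seen.

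Of 21 mismatch repair genes including MGMT, 1 was called lower and 1 higher (4.76% each), against 2.48% and 3.17% of all genes. MSH3, which detects larger loops in mispaired DNA, was at 9.20 and 9.26 in HCT116, against 11.71 and 11.93 in SW620 and 11.15 and 11.23 in HT29, a 4.85-fold lower level (log2 difference -2.28 ± 0.27 SE, adjusted p = 0.0224). MSH6, which detects single mispairs, was at 11.41 and 11.28 in HCT116, against 11.67 and 11.48 in SW620 and 11.43 and 11.17 in HT29, with overlapping arrays (adjusted p = 0.765). EXO1, the exonuclease that removes the strand with the error, was at 11.84 and 11.75 in HCT116, against 11.02 and 11.14 in SW620 and 10.85 and 10.93 in HT29 (log2 difference 0.81 ± 0.12 SE, adjusted p = 0.0376). MGMT, which removes alkyl groups from guanine, was at 9.22 and 9.32 in HCT116, against 8.03 and 7.94 in SW620 and 9.64 and 10.10 in HT29, between the lines.

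**Figure D4:**
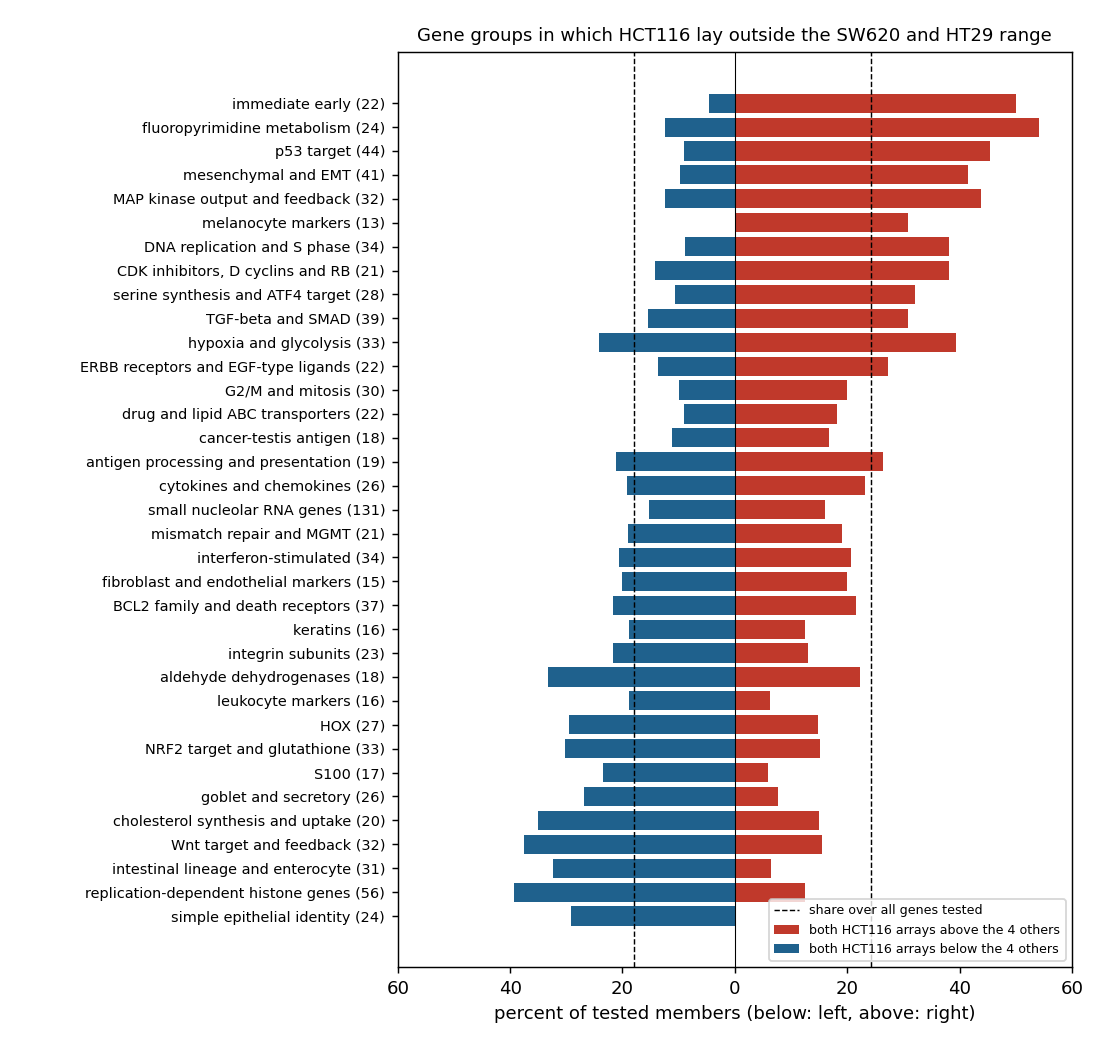
Share of each gene group's tested members (number in brackets) for which both HCT116 arrays lay above (right, red) or below (left, blue) all 4 SW620 and HT29 arrays, with dashed lines at the shares over all genes tested, 24.3% above and 17.9% below. Fluoropyrimidine metabolism (54.2%), immediate early (50%) and p53 target genes (45.5%) reach farthest to the right, and histone genes (39.3%) and Wnt targets (37.5%) reach farthest to the left.

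Targets and feedback inhibitors of Wnt signalling, the pathway that keeps intestinal crypt cells dividing, leaned lower in HCT116. Of 32, 12 (37.5%) lay below all 4 other arrays, against 17.9% of all genes, and the median difference was -0.89. That median was -1.62 against SW620 and 0.01 against HT29, so the lean was measured against SW620. The calls were 1 higher (3.12%) and 2 lower (6.25%), against 3.17% and 2.48% of all genes. EPHB3, a crypt receptor that sorts cells along the crypt axis, was at 7.91 and 8.10 in HCT116, against 9.70 and 10.16 in SW620 and 9.88 and 9.90 in HT29 (log2 difference -1.90 ± 0.12 SE, adjusted p = 0.00583). ZNRF3, the ligase that removes Wnt receptors, was at 9.86 and 9.69 in HCT116, against 11.60 and 11.67 in SW620 and 11.08 and 11.20 in HT29 (log2 difference -1.61 ± 0.23 SE, adjusted p = 0.0329). MSX1, a homeobox factor, was at 11.12 and 11.16 in HCT116, against 9.55 and 9.61 in SW620 and 9.10 and 9.22 in HT29 (log2 difference 1.77 ± 0.19 SE, adjusted p = 0.0184).

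LGR5, the stem cell receptor of the crypt base, was at 6.20 and 6.04 in HCT116, against 12.71 and 12.71 in SW620 and 10.30 and 9.86 in HT29, at least 14.8-fold lower with no call (adjusted p = 0.0725). AXIN2, a feedback inhibitor of the pathway, was at 9.54 and 9.51 in HCT116, against 12.56 and 12.64 in SW620 and 11.20 and 11.16 in HT29 (log2 difference -2.37 ± 0.58 SE, adjusted p = 0.105). In both genes the HCT116 arrays were the lowest, and SW620 and HT29 differed from each other by over a unit. The pathway's transcription partner CTNNB1 was between the lines, at 13.57 and 13.62 in HCT116, against 14.05 and 14.07 in SW620 and 13.36 and 13.36 in HT29, and APC, its brake, differed by -0.14 ± 0.11 (SE, adjusted p = 0.551).

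In the TGF-beta family, whose receptors signal through SMAD proteins, 3 of 39 genes (7.69%) were called higher and 1 (2.56%) lower, against 3.17% and 2.48% of all genes. Above all 4 others lay 12 (30.8%), near the 24.3% of all genes. ID3, an inhibitor of differentiation factors and a target of BMP signalling, was at 10.39 and 10.31 in HCT116, against 7.85 and 8.23 in SW620 and 7.78 and 7.73 in HT29, a 5.45-fold higher level (log2 difference 2.45 ± 0.18 SE, adjusted p = 0.00688). SMURF2, a ubiquitin ligase for receptors and SMADs, was at 13.24 and 13.25 in HCT116, against 11.75 and 11.83 in SW620 and 11.47 and 11.59 in HT29 (log2 difference 1.59 ± 0.14 SE, adjusted p = 0.0107). The third was SMAD9, a SMAD of the BMP branch chosen after its values were seen, at 8.05 and 7.9985 in HCT116 and under the olfactory level on the 4 other arrays, at least 1.43-fold higher (adjusted p = 0.0391).

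SKIL, a repressor of SMAD target genes, was at 8.86 and 8.73 in HCT116, against 10.42 and 10.30 in SW620 and 11.06 and 10.96 in HT29 (log2 difference -1.89 ± 0.28 SE, adjusted p = 0.0362). SMAD4, the shared partner of the pathway, was at 12.19 and 12.21 in HCT116, against 7.51 and 8.05 in SW620 and 9.50 and 9.32 in HT29 (log2 difference 3.60 ± 0.69 SE, adjusted p = 0.0632). It was the highest in HCT116 by over 2 units on every array and missed the threshold, as SW620 and HT29 also differed. TGFBR2, the receptor that binds the ligand, was at 10.79 and 10.74 in HCT116, against 11.75 and 11.41 in SW620 and 12.23 and 12.15 in HT29 (log2 difference -1.12 ± 0.27 SE, adjusted p = 0.101).

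MAP kinase signalling carries growth signals from RAS to the nucleus and induces its own inhibitors. Of 32 output and feedback genes, 14 (43.8%) lay above all 4 other arrays, against 24.3% of all genes. The calls were 3 higher (9.38%) and 2 lower (6.25%), against 3.17% and 2.48% of all genes. DUSP5, a nuclear phosphatase of ERK, was at 12.58 and 12.62 in HCT116, against 9.73 and 9.63 in SW620 and 10.04 and 10.29 in HT29, a 6.40-fold higher level (log2 difference 2.68 ± 0.23 SE, adjusted p = 0.0103). DUSP6, the cytoplasmic ERK phosphatase, was at 12.15 and 12.23 in HCT116, against 11.45 and 11.34 in SW620 and 11.41 and 11.45 in HT29 (log2 difference 0.78 ± 0.09 SE, adjusted p = 0.0225). Of the Sprouty inhibitors of receptor signalling, SPRY1 was called lower, at 7.91 and 7.35 in HCT116, against 10.05 and 9.86 in SW620 and 10.13 and 10.24 in HT29 (log2 difference -2.44 ± 0.18 SE, adjusted p = 0.00773), with 1 of 2 HCT116 arrays above the olfactory level. Its relatives SPRY2 and SPRY4, named after their values were seen, had log2 differences of -2.30 and 0.61 with no call (adjusted p = 0.109 and 0.44). ETV4, an ETS factor downstream of ERK, had a log2 difference of -0.66 ± 0.11 (SE, adjusted p = 0.0456).

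Immediate early genes, which respond to stimuli without new protein synthesis, lay above all 4 others for 11 of 22 (50%) and below for 1 (4.55%). Over all genes these shares were 24.3% and 17.9%. The group's median was 0.44. The calls were 3 higher (13.6%) and 1 lower (4.55%), against 3.17% and 2.48% of all genes. NR4A1, an orphan nuclear receptor, was at 10.21 and 10.21 in HCT116, against 8.94 and 8.79 in SW620 and 9.18 and 9.20 in HT29 (log2 difference 1.18 ± 0.16 SE, adjusted p = 0.0297). KLF2, a zinc finger factor, and FOSL1, the AP-1 subunit FRA1 that also stands in the MAP kinase list and was chosen after its values were seen, had log2 differences of 0.66 ± 0.10 and 0.63 ± 0.10 (SE, adjusted p = 0.0367 and 0.0383). The 1 called lower was JUN, another AP-1 subunit, at 9.85 and 9.74 in HCT116, against 11.40 and 11.51 in SW620 and 11.95 and 11.43 in HT29 (log2 difference -1.78 ± 0.18 SE, adjusted p = 0.0156).

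Among 22 growth factor receptors and EGF-type ligands, 2 were called higher and 2 lower (9.09% each), against 3.17% and 2.48% of all genes. INSR, the insulin receptor, was at 8.96 and 8.86 in HCT116, against 7.72 and 7.68 in SW620 and 7.88 and 7.99 in HT29 (log2 difference 1.09 ± 0.13 SE, adjusted p = 0.0243). Its relative IGF1R, the receptor for insulin-like growth factors, was at 9.47 and 9.37 in HCT116, against 11.07 and 11.26 in SW620 and 11.21 and 11.38 in HT29 (log2 difference -1.81 ± 0.12 SE, adjusted p = 0.00568). The paired receptors thus had opposite signs. The ligand NRG1 was at least 1.25-fold higher (adjusted p = 0.0103), and ERBB3, a receptor that binds it, was at 9.41 and 9.41 in HCT116, against 10.76 and 10.72 in SW620 and 11.36 and 11.25 in HT29 (log2 difference -1.62 ± 0.25 SE, adjusted p = 0.0391). EGFR was at 10.66 and 10.52 in HCT116, against 6.76 and 7.19 in SW620 and 10.80 and 11.49 in HT29, so that HCT116 lay far above SW620 and a little below HT29.

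NRF2 targets and glutathione genes defend against oxidants and reactive drugs. Of 33 tested, 10 (30.3%) lay below all 4 others, against 17.9% of all genes. By limma 0 were called higher and 2 (6.06%) lower, against 2.48% of all genes called lower. Besides GPX2 the call was AKR1C3, an aldo-keto reductase, at 5.95 and 5.85 in HCT116, against 10.11 and 9.96 in SW620 and 11.55 and 11.13 in HT29, at least 9.06-fold lower (adjusted p = 0.0206). AKR1C1, its close relative chosen after its values were seen, was at 6.47 and 6.59 in HCT116, against 9.18 and 9.28 in SW620 and 11.03 and 10.55 in HT29 (adjusted p = 0.0619), and similar AKR1C sequences may share probe signal. GCLM and NQO1, other NRF2 targets also chosen after the fact, differed by 0.36 and -0.33 (adjusted p = 0.567 and 0.267). Among 18 aldehyde dehydrogenases, ALDH3A1 was the 1 called (5.56%, against 2.48% of all genes called lower). Its log2 difference was -1.04 ± 0.13 (SE, adjusted p = 0.025).

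Of 33 hypoxia and glycolysis genes, 13 (39.4%) lay above and 8 (24.2%) below all 4 others, against 24.3% and 17.9% of all genes. By limma 0 were called lower and 2 (6.06%) higher, against 3.17% of all genes called higher. Besides BNIP3 this was ADM, the vessel-widening peptide adrenomedullin, at 11.87 and 11.91 in HCT116, against 8.96 and 9.04 in SW620 and 9.49 and 9.47 in HT29, a 6.28-fold higher level (log2 difference 2.65 ± 0.21 SE, adjusted p = 0.00913). Named after their values were seen, the glycolytic enzymes GAPDH, LDHA and PKM had differences of -0.03, -0.03 and -0.09, and EGLN3, an oxygen-sensing hydroxylase that HIF-1 induces, had -1.22 (adjusted p = 0.0519). EGLN3, without a call, thus had the opposite sign to BNIP3 and ADM, and a common cause was not tested.

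Fluoropyrimidines such as 5-fluorouracil block thymidylate synthesis and are used against colon cancer. Of 24 genes that handle them or their targets, 13 (54.2%) lay above all 4 others and 3 (12.5%) below, against 24.3% and 17.9% of all genes. Their median was 0.16, and 1 was called higher (4.17%, against 3.17% of all genes). CDA, the cytidine deaminase that converts prodrugs, was at 10.19 and 10.03 in HCT116, against 8.15 and 8.79 in SW620 and 8.71 and 8.77 in HT29, a 2.83-fold higher level (log2 difference 1.5025 ± 0.22 SE, adjusted p = 0.0352). The drug's target TYMS was at 13.27 and 13.18 in HCT116, against 13.08 and 12.92 in SW620 and 12.78 and 12.81 in HT29 (adjusted p = 0.232), and DPYD, the enzyme that degrades the drug, was at 7.94 and 7.75 in HCT116, against 7.68 and 7.54 in SW620 and 8.87 and 9.19 in HT29. TYMS and DPYD were named after their values were seen. Of 20 genes of cholesterol synthesis and uptake, 7 (35%) lay below all 4 others, against 17.9% of all genes. The 1 called (5%, against 2.48% of all genes called lower) was LSS, which closes the sterol ring. Its log2 difference was -0.59 ± 0.10 (SE, adjusted p = 0.0458). Of 28 serine synthesis and ATF4 target genes 0 were called by limma and 9 (32.1%) lay above, against 24.3% of all genes.

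Among 34 interferon-stimulated genes, HERC5, a ligase that attaches the modifier ISG15, was the 1 called (2.94%, near the 3.17% of all genes called higher). It was at 8.29 and 8.34 in HCT116, against 5.53 and 6.32 in SW620 and 5.88 and 6.13 in HT29, at least 1.75-fold higher (adjusted p = 0.00773), while the median of the group was -0.04. Of 19 genes of antigen presentation, 1 was called higher and 1 lower (5.26% each), against 3.17% and 2.48% of all genes. TAP2, a subunit of the peptide transporter, had a log2 difference of 0.71 ± 0.09 (SE, adjusted p = 0.0268). ERAP1, the peptide-trimming protease, was at 8.84 and 8.84 in HCT116, against 9.98 and 10.03 in SW620 and 9.81 and 9.82 in HT29 (log2 difference -1.07 ± 0.11 SE, adjusted p = 0.0168). Of 26 cytokines and chemokines, 1 was called higher (3.85%, against 3.17% of all genes). This was CSF1, the macrophage growth factor, with a log2 difference of 0.69 ± 0.11 (SE, adjusted p = 0.0413) and 1 of the 4 comparison arrays under the olfactory level. IL18, an epithelial cytokine chosen after its values were seen, was at 10.94 and 11.03 in HCT116, against 5.93 and 7.48 in SW620 and 8.21 and 8.09 in HT29 (adjusted p = 0.0672), and its higher SW620 value came from the array with raised leukocyte markers. Of 16 leukocyte markers tested, 1 was called lower (6.25%, against 2.48% of all genes). This was CORO1A, an actin-binding protein of leukocytes and other cells, with 8.98 and 9.17 in HCT116, against 9.96 and 10.17 in SW620 and 9.88 and 10.02 in HT29 (adjusted p = 0.0161). On these 16 markers the mean level ran between 7.66 and 7.67 in HCT116, against 8.16 to 9.04 on the other 4 arrays. Their median difference was -0.56 against SW620 and 0.05 against HT29, so by the median HCT116 was not lower than HT29.

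A few genes of other tissues were on in HCT116. PRAME, an antigen of tumours and testis, was at 9.82 and 9.73 in HCT116, against 6.35 and 6.61 in SW620 and 6.79 and 6.74 in HT29, at least 4.81-fold higher (adjusted p = 0.00331). It was the 1 called of 18 cancer-testis genes (5.56%, against 3.17% of all genes called higher). RAB38, a small GTPase of melanosome transport, was at 10.58 and 10.62 in HCT116, against 7.32 and 7.06 in SW620 and 7.21 and 7.32 in HT29, at least 8.54-fold higher (adjusted p = 0.00153). RAB38 was the 1 called of 13 melanocyte genes (7.69%, against 3.17% of all genes called higher). Of these 13, 4 (30.8%) lay above all 4 other arrays and 0 below, against 24.3% and 17.9% of all genes. The pigment cell markers MLANA, TYR and TYRP1 were under the olfactory level on all 6 arrays. PMEL, a melanosome fibril protein, was at 7.89 and 7.75 in HCT116, against 7.25 and 7.34 in SW620 and 7.14 and 7.14 in HT29, and MITF, the pigment cell regulator, was at 7.79 and 7.86 in HCT116, against 7.42 and 7.49 in SW620 and 7.17 and 7.50 in HT29. Both were above the olfactory level in HCT116 and under it on the 4 other arrays, with no call (adjusted p = 0.0636 and 0.122). MITF was only just under it on the ABCB5-positive HT29 array, at 7.497. SOX10, another melanocyte marker chosen after its values were seen, was above the olfactory level on all 6 arrays. It was at 8.249 and 8.320 in HCT116, against 8.261 and 8.255 in SW620 and 8.532 and 8.378 in HT29. Its highest values were thus those of HT29. Of 27 HOX genes, 22 ABC transporters, 17 S100 genes and 15 fibroblast and endothelial markers, limma called 0. ABCB5, the sorted antigen, was at 5.40 and 5.69 in HCT116, against 5.25 and 5.35 in SW620 and 5.36 and 5.24 in HT29, under the olfactory level on every array (adjusted p = 0.333).

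A lean by chromosome was measured over 12929 genes whose mean lay at or above the olfactory level, with a median difference of 0.04. The median was 0.26 on chromosome 8, with 0.27 against SW620 and 0.24 against HT29. On it 44% of 434 genes lay above all 4 others, against 25.8% over all chromosomes in this set. Chromosome 18 had 0.21, with 0.35 against SW620 and 0.06 against HT29, and 9.41% of its genes were called higher, against 3.26% over all chromosomes in this set. On the low side the median was -0.17 on chromosome 20, with -0.15 against SW620 and -0.16 against HT29, and -0.23 on chromosome X, with -0.40 against SW620 and -0.09 against HT29. Chromosomes 7 and 11 had -0.13 and -0.14. The shifts on chromosomes 8, 7, 11 and 20 had like sizes against both lines, while those on 18 and X were larger against SW620. On chromosome 10, where BNIP3 and DUSP5 lie, 39 of 503 genes (7.75%) were called higher with a median of 0.07.

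**Figure D5:**
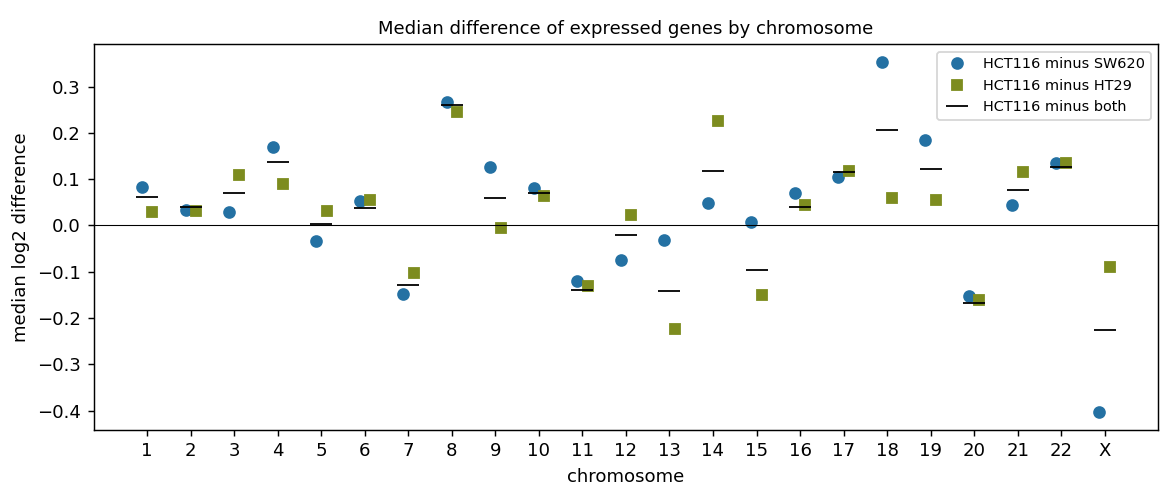
Median log2 difference of expressed genes by chromosome, for HCT116 minus SW620 (blue circles), HCT116 minus HT29 (green squares) and HCT116 minus the mean of both (black dashes). Chromosome 8 lies highest among those on which both comparisons are close together, chromosomes 7, 11 and 20 lie below 0 in both, and the circle and square are far apart on 18 and X.

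Outside the histone clusters, called genes of the same direction stood beside each other among tested neighbours in 6 runs of at least 3. The longest lay on chromosome 1 and held SSX2IP, LPAR3, MCOLN2, MCOLN3 and DNAI3, all called higher in HCT116, although DNAI3 was under the olfactory level on all 6 arrays. MCOLN2 and MCOLN3 are ion channels of endosomes and lysosomes. MCOLN3 was at 9.74 and 9.59 in HCT116, against 6.11 and 6.95 in SW620 and 6.56 and 6.31 in HT29, at least 4.46-fold higher (adjusted p = 0.0095), and MCOLN2 was at least 3.79-fold higher (adjusted p = 0.00197). CLDND1, GPR15 and CPOX on chromosome 3 and TRMT1, NACC1 and STX10 on chromosome 19 were also called higher, with GPR15 under the olfactory level on all 6 arrays. CPOX, an enzyme of haem synthesis, was at 12.14 and 12.06 in HCT116, against 10.03 and 10.28 in SW620 and 9.70 and 9.66 in HT29 (log2 difference 2.18 ± 0.22 SE, adjusted p = 0.0159).

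Runs lower in HCT116 were the zinc finger genes ZNF614, ZNF432 and ZNF841 on chromosome 19, the genes RIOX1, ACOT2 and ACOT4 on chromosome 14, and TMEM53, RNU5F-1 and RNU5D-1 on chromosome 1. ZNF841 was at 6.28 and 5.62 in HCT116, against 9.45 and 9.47 in SW620 and 9.99 and 10.04 in HT29, at least 4.69-fold lower (adjusted p = 0.00802), and ZNF432 was at least 2.87-fold lower (adjusted p = 0.00331). ACOT2 and ACOT4 are thioesterases that split acyl-CoA in mitochondria and peroxisomes, and RNU5F-1 and RNU5D-1 encode variants of the spliceosomal U5 RNA. Both U5 genes were under the olfactory level on the HCT116 arrays and on 2 of the 4 others. ACOT2 was at 7.64 and 7.44 in HCT116, against 10.57 and 10.85 in SW620 and 9.64 and 9.67 in HT29 (log2 difference -2.64 ± 0.45 SE, adjusted p = 0.0498), with 1 of 2 HCT116 arrays above the olfactory level. Neighbours of similar sequence, as in the ACOT, ZNF and U5 genes, may share probe signal.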

How the data were processed

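RNA of sorted cells was measured on 8 Affymetrix Human Gene arrays, 6 of which enter the comparison. The values of 33297 probe sets, deposited by the authors, run from 2.99 to 15.24 and were therefore taken as log2 expression. Affymetrix Expression Console produced them, per the submitters' processing notes, with a summarisation and normalization not given in the sources used here. Array medians lay between 8.03 and 8.1, and no further normalization was applied. The number of arrays limits the precision.

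Gene names came from the annotation of the platform, with symbols updated through gene identifiers for 19429 of the 19460 that name 1 gene; 1754 naming several genes and 12083 unnamed were not used. Of several probe sets for a gene, that with the highest 8-array mean was kept, and 1507 genes under the olfactory median of 5.74 were left out. The fit used limma 3.58.1 in R 4.3.3 with 3 residual degrees of freedom and a prior of 1.51, two-sided. It was tested on simulated data without a line effect, which cannot show how the p-values behave where 2 arrays share a line. Nothing says that the arrays of a line came from separate cultures, so part of the spread may be technical.

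The genes named are the 12 largest called differences per direction, up to 2 called members per direction of each of 33 gene lists, a fixed set of genes known in colon cancer, and those marked as chosen after their values were seen. The comparison and the lists were chosen with earlier results of these data known. Alternatives covered scaling, filters, probe set choice, the covariate, the line as the unit, single comparison lines and single arrays left out.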

Additional observations from a re-analysis of the deposited data

Results flagged for a closer look

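For 6 of the fixed genes both HCT116 arrays lay between the SW620 and HT29 arrays, so the difference had opposite signs in the 2 comparisons. Whether the comparisons differ was not tested, and both share the HCT116 arrays. VIM differed by -5.19 as HCT116 minus SW620 and by 1.07 as HCT116 minus HT29. KRT20 differed by 0.47 as HCT116 minus SW620 and by -5.78 as HCT116 minus HT29, with the HCT116 and SW620 arrays under the olfactory level. EGFR differed by 3.61 and -0.55, ZEB1 by -1.36 and 1.93, MGMT by 1.29 and -0.60, and CTNNB1 by -0.47 and 0.23, with HCT116 minus SW620 given first in each. No group had enough arrays for a check of single outlying arrays.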

How the results depend on the processing

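The 956 calls came to between 851 and 988 with quantile normalization, median centring, an intensity trend, every probe set, no filter or a stricter filter on dim genes. They came to 2006 without the population covariate, 150 with a random block for the line and 0 with both arrays of a line averaged, where 873 genes had an unadjusted limma p below 0.05. The spread in that last fit is the gap between SW620 and HT29. Where this gap left the error, 7348 genes were called with a coefficient per line, 6658 with COLO741 kept, 6845 against SW620 alone and 7804 against HT29 alone. The calls at 2-fold or more, 608 in the fit reported, were 150, 0, 1673, 1668, 1943 and 2094 in the last 6 of these settings. Leaving out 1 array gave 0 to 374 calls and 0 to 367 at 2-fold or more. The 0 belongs to either HCT116 array, after which that group is a single array assumed to vary like the others, with 1434 and 1413 genes at an unadjusted limma p below 0.05. Of 86 named genes called, 35 stayed called in the random block and 47 without the ABCB5-positive SW620 array. None of the 86 changed sign under any alternative run. No called gene had an HCT116 array within the range of the comparison arrays. Leaving out arrays or a line, or averaging the arrays of a line, therefore could not turn its sign, and these settings do not test it. The gap between SW620 and HT29 was part of the error, so genes with a wide gap tended to have no call. Some genes without a call did change sign. Against SW620 alone CDH1 had 0.506, KRT20 0.467 and ZEB1 -1.359, and against HT29 alone MSH6 had 0.046, MGMT -0.603, VIM 1.069, CTNNB1 0.234 and EGFR -0.555. Leaving out 1 array gave MGMT -0.117 to 0.811, CTNNB1 -0.272 to 0.035 and ZEB1 -0.498 to 1.105. The cause of these turns was not tested beyond the values per line. Signals under the olfactory level limit the folds to lower bounds.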

Other observations

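The COLO741 arrays enter no comparison above, and their values are set beside HCT116 as a description, without a test. Of the 608 genes called at 2-fold or more, the COLO741 mean lay nearer to that of HCT116 than to that of SW620 and HT29 for 275. Of the 17 histone genes called lower in HCT116 it did so for 12. H1-5 averaged 6.78 in HCT116, 12.84 in SW620 and HT29 and 7.04 in COLO741, H2BC10 averaged 5.23, 9.21 and 5.38 in the same groups, and H3C8 averaged 7.16, 10.61 and 6.96. H2BC3 did not do so, with 6.93, 10.45 and 10.15.

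Among the 12 largest differences higher in HCT116, COLO741 was nearer to HCT116 for 3, namely OSMR with a mean of 11.13, BNIP3 with 12.17 and PRKAR2B with 10.99 in COLO741. GTSF1 averaged 13.50 in HCT116, 5.39 in SW620 and HT29 and 5.43 in COLO741, so that it was above the olfactory level in HCT116 and its mean was under it in the other lines. Among the 12 largest differences lower in HCT116 it was nearer for 7, among them GPX2 with 6.55 and POF1B with 5.52 in COLO741, while TM4SF1, CLDN1 and TXNIP were above the olfactory level there, at 12.16, 13.26 and 12.48.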
